A study of Mus musculus with 24 samples.

Results

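The BCL2 family decides whether the mitochondrial outer membrane of a cell stays intact, and 10 of its genes were followed here through the loss of the transcription factors MITF, TFEB and TFE3 in mouse melanoma cells. The genes were taken by symbol from the deposited expression table as those coding for the pro-survival proteins (Bcl2, Bcl2l1, Bcl2l2, Mcl1), the pore-forming effectors (Bax, Bak1) and the BH3-only proteins (Bid, Bcl2l11, Bbc3, Bmf). All 10 were among its 12010 genes. B16F10-luc2 is a B16-F10 melanoma line that carries a luciferase reporter. The 8 lines were the parental cells, labelled as wild type, the Mitf, Tfe3 and Tfeb single KOs, the MITF/TFE3, MITF/TFEB and TFEB/TFE3 double KOs (DKOs) and the triple KO (TKO), each with 3 libraries of poly(A) RNA read at the 3′ end. All were kept in the same serum-containing medium with no further treatment. The KO of MITF is a line described earlier with a frameshift in the gene, and a low level of a truncated MITF protein may remain in it. Tfe3 and Tfeb were cut with CRISPR-Cas9 in the parental cells or in that line, and monoclones were isolated. The 4 lines without MITF thus descend from 1 line, so that loss of MITF and what else is particular to that line cannot be told apart. Each KO line is likewise 1 genotype in 1 clonal background. The labels do not say whether the 3 libraries of a line came from separate cultures, and p-values then measure only the spread between these libraries, which may be technical.

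In healthy cells BCL2, BCL-XL (the product of Bcl2l1), BCL-W (Bcl2l2) and MCL1 hold BAX and BAK in check. BH3-only proteins are raised or activated by stress, and they either block the pro-survival proteins or activate BAX and BAK directly, after which BAX and BAK oligomerise and release cytochrome c into the cytosol. Melanocytes depend on BCL2, and mice that lack it lose hair pigment after birth. Bcl2 is a known target of MITF, a basic helix-loop-helix leucine zipper factor that binds E-box sequences such as CACGTG and CATGTG, as do TFEB and TFE3. The comparisons ask which of these genes follow each of the 3 related factors and whether the effect of 1 factor depends on the presence of the others.

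The 250 bases upstream of 1 annotated transcript start a gene (GENCODE vM39 on GRCm39, the same assembly as mm39) are shown for Bcl2 and Bcl2l1, which moved in opposite directions in the TKO and the MITF/TFEB DKO, and for Bax, the member with an E-box next to its canonical start. Bcl2 has 2 annotated starts with a window of their own, Bcl2l1 12 and Bax 1. The window is that of the canonical transcript for Bcl2 and Bax, and for Bcl2l1 that of the outermost start, which is not the canonical one, since the window of the canonical start overlaps an exon. They are written 5′ to 3′ on the minus strand of each chromosome, on which the 3 genes lie, and capitals mark CACGTG.
Bcl2, chr1:106642061-106642310: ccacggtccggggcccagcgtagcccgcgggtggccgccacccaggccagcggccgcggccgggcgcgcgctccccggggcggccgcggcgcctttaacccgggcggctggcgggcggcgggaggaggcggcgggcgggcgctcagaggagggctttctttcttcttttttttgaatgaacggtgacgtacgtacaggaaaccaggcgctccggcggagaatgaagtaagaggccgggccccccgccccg
Bcl2l1, chr2:152673656-152673905: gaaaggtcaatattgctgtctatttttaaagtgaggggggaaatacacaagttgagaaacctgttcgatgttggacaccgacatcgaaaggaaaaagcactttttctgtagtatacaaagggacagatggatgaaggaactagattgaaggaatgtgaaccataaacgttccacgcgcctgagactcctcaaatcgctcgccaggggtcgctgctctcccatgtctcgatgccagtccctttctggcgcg
Bax, chr7:45116326-45116575: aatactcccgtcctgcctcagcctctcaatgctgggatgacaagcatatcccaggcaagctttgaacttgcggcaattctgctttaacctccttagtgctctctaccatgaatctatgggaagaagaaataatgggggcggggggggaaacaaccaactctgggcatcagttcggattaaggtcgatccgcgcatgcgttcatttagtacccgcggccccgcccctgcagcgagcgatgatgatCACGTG
The search read CACGTG and CATGTG on both strands, of which the first reads the same on each. Over the 46 windows of the 10 genes, CACGTG lay in the Bax window above, in 3 overlapping Bid windows and in 2 overlapping Bbc3 windows, and CATGTG lay 2 times in 1 Bbc3 window. None of the Bbc3 and Bid windows with a match belongs to the canonical transcript. The CACGTG matches of Bbc3 and Bid are shown with 10 bases on either side.
Bbc3: ggggcgggcgCACGTGgcggcgtcga
Bid: ttgtcactgtCACGTGtcctttgggg
Of the 33724 windows of this kind over all genes of the table, 7.48% held CACGTG and 8.81% held CATGTG. Counted by gene, 13.1% of 11081 genes had a window with CACGTG and 16.5% had a window with CATGTG. The longer forms TCACGTGA and TCATGTGA stood in 1.2% and 0.812% of them and in none of the 46. The Bax window ends with CACGTG, so the longer form could not be read in full at that match. A match describes the letters of the window, and its absence says nothing about binding elsewhere at the gene.

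The libraries held 18300902 to 26667877 reads on genes (median 22445535), and expression is given in CPM, the reads of a gene relative to those of its library, with the library totals scaled by the TMM method. Because the kit reads only the 3′ end, a gene's CPM does not grow with its length. Levels, sums and shares of different genes may still be compared only roughly, since the counting tool, annotation and strand setting are not given. Among the members, Mcl1 had the highest mean level over the 24 libraries (121 CPM) and Bmf the lowest (1.28 CPM, from 9 to 80 reads a library), and Bcl2l2 was also low (2.55 CPM, 22 to 95 reads). Tfeb was at 2.06 to 5.27 CPM in the 4 lines in which it was targeted and at 7.87 to 22.7 CPM in the others, and Tfe3 at 8.01 to 21.7 CPM against 31.1 to 62.5 CPM. Mitf messenger RNA stayed high in the MITF KO (1358 to 1470.5 CPM, parental 763 to 797), and reads from the 3′ end do not check a frameshift. The 8 melanocyte lineage markers were all in the table and summed to 15829 to 40327 CPM, while the fibroblast list had 2 of 6 genes in the table (9.73 to 45.3 CPM) and the leukocyte list 1 of 6 (0 to 3.90 CPM). In the 2 lines with the highest Bcl2, 7 of the 8 melanocyte markers were lower than in the parental cells, Tyr by -3.83 (log2) in the TKO, and their sum was 15829 to 16861 CPM in the TKO and 17180 to 19646 CPM in the MITF/TFEB DKO, against 26153 to 26971 CPM for the parental cells and 38423 to 40327 CPM for the MITF KO. The 2 fibroblast genes in the table, Col1a1 and Col1a2, rose in all 4 lines without MITF and in the TFEB/TFE3 DKO (Col1a2 in the other 2 KO lines too) and the leukocyte gene Lyz2 in 3 of the lines without MITF, while the genes of these lists that define the cell types most narrowly, Pdgfra and Dcn for fibroblasts and Ptprc for leukocytes, are not among the 12010 genes. The part of these shifts in the results below was not tested.

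Against the parental cells, the 10 genes gave 70 gene and line pairs, of which 13 rose and 11 fell at an adjusted p under 0.05 (limma on log2(CPM + 1), Benjamini-Hochberg over all genes tested). In the MITF KO 2 members rose and 1 fell, where 20.1% of all genes rose and 17.8% fell. In the TFE3 KO none rose and 3 fell, against 4.5% and 7.78% of all genes. In the MITF/TFE3 DKO 2 rose and 3 fell (20.2% and 21.7% of all genes), in the MITF/TFEB DKO 5 rose and 1 fell (28.8% and 27.3%), in the TFEB/TFE3 DKO 1 fell (4.72% of all genes rose and 4.09% fell) and in the TKO 4 rose and 2 fell (28.3% and 27.9%). In the TFEB KO none of the 10 passed the limma test, where 4.84% of all genes did. There, 2 members had an unadjusted p under 0.05, and edgeR on the recovered reads gave the same counts of 0 and 2. Over the 10 members the log2 fold change had a median of 0.22 for the TKO and 0.34 for the MITF/TFEB DKO, where the medians of all genes were 0.014 and 0.013, and it lay between -0.11 and 0.055 in the other 5 lines. By at least 2-fold at an unadjusted p under 0.05, 4 of the 70 pairs rose and 1 fell (Bcl2, Bmf and Bbc3 up and Bcl2l1 down in the MITF/TFEB DKO, and Bcl2 up in the TKO), where 3.57% of all gene and line pairs rose and 2.72% fell so. The parental libraries are shared by all 7 comparisons.

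**Figure D1:**
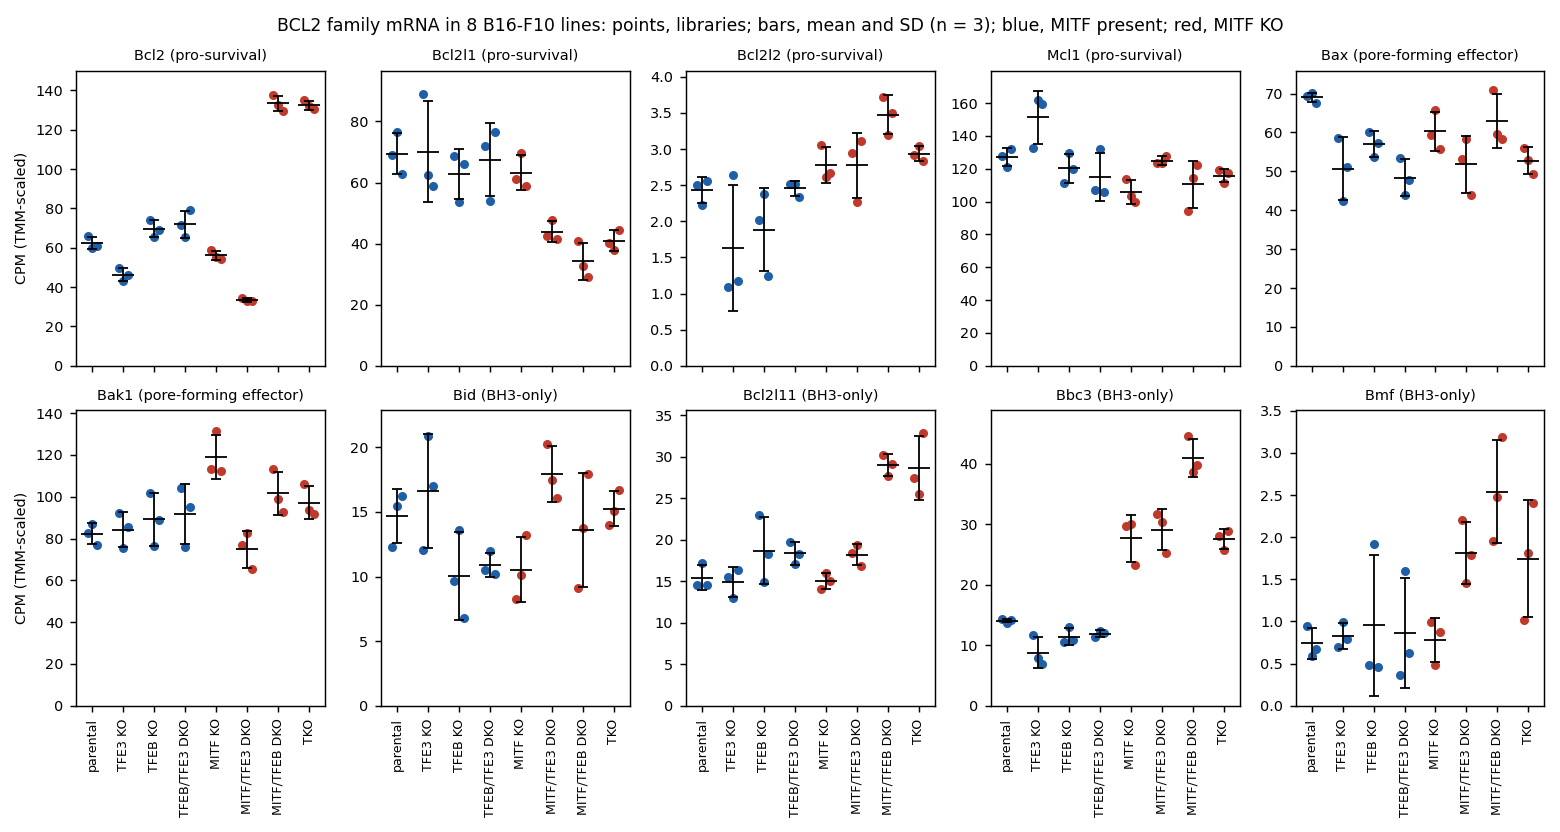
CPM of the 10 genes in each of the 24 libraries, 1 panel a gene with the y axis in TMM-scaled CPM from 0 and the cell lines along x (blue, MITF present; red, MITF KO background). Points are libraries and bars the mean and SD of 3; Bcl2 stands at 129.7 CPM or above in all libraries of the TKO and MITF/TFEB DKO and at 78.9 CPM or below elsewhere, and Bbc3 is at 23.2 CPM or above in all 12 libraries without MITF and at 14.3 CPM or below in all 12 with it.

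Bcl2, the founding pro-survival gene and the one tied most directly to MITF, rose or fell depending on which factors were lost together. The parental libraries held 65.9, 60.1 and 60.9 CPM, and the MITF KO 58.9, 55.4 and 54.4 CPM. All 3 libraries of the MITF KO lay below the lowest parental one, but the difference was small and did not pass the test (log2 fold change -0.15, 95% CI -0.31 to 0.017, adjusted p = 0.15). The TFE3 KO, at 49.8, 43.0 and 46.0 CPM, was lower than the parental cells (-0.42 ± 0.078 SE, adjusted p = 0.00074), although with only the libraries compared in the fit the adjusted p was 0.051. The MITF/TFE3 DKO held the lowest levels of all lines, 34.7, 33.0 and 33.1 CPM, a 1.83-fold fall (adjusted p = 8.81e-09). In the MITF/TFEB DKO the levels were instead 138, 133 and 129.7 CPM, a 2.12-fold rise (log2 1.09 ± 0.078 SE, adjusted p = 5.75e-11). The TKO was at 135, 132 and 130.4 CPM, 2.11-fold above parental (adjusted p = 5.35e-11). These 6 libraries did not overlap those of any other line, and the MITF/TFEB DKO and TKO overlapped each other. Here and below, the share of all genes whose lines separate in such a way was not counted. The TFEB KO (74.2, 65.7 and 69.0 CPM) and the TFEB/TFE3 DKO (71.4, 65.2 and 78.9 CPM) overlapped each other, and the TFEB KO overlapped the parental cells. Bcl2 thus ranged 3.97-fold between the means of the lowest and the highest line.

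Bcl2 (ENSMUSG00000057329) lies on the minus strand of chromosome 1, from 106465908 to 106642060, and no annotated gene overlaps its 3′ end. The 100 genes nearest to it along the chromosome differed from the parental cells by a median of 0.42 (log2) for the TKO and 0.29 for the MITF/TFEB DKO, so that the region as a whole was higher in these lines, and of 0.14 in the MITF/TFE3 DKO, where Bcl2 itself fell. The part of such regional shifts in the Bcl2 values was not tested. For the other members the median of the neighbours lay between -0.33 (Bbc3 in the MITF/TFE3 DKO) and 0.30 (Mcl1 in the TKO).

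Bcl2l1, whose main product BCL-XL shares the role of BCL2, went the other way in the lines that had lost MITF and TFEB. The parental cells held 68.9, 76.4 and 62.9 CPM, and no single KO differed detectably from them, with MITF KO libraries at 61.2, 69.6 and 58.8 CPM (log2 -0.13, 95% CI -0.45 to 0.18). The 3 TFE3 KO libraries were spread widely, at 89.0, 62.5 and 58.9 CPM. Levels dropped when MITF was lost together with another factor. The MITF/TFE3 DKO held 42.4, 47.8 and 41.4 CPM (log2 -0.65 ± 0.15 SE, adjusted p = 0.0015), the MITF/TFEB DKO 40.9, 32.6 and 29.0 CPM (2.02-fold lower, adjusted p = 5.92e-06) and the TKO 40.3, 37.9 and 44.5 CPM (1.68-fold lower, adjusted p = 0.00022). The 9 libraries of these 3 lines lay below all 15 others, and neighbours in the order of the 3 lines overlapped. The gene (ENSMUSG00000007659) lies on the minus strand of chromosome 2, from 152622582 to 152673655.

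Mcl1, which codes for a short-lived pro-survival protein, was the most abundant member and varied little, with line means from 106 CPM in the MITF KO to 151 CPM in the TFE3 KO. It passed the test in the MITF KO alone, at 114, 104 and 99.9 CPM against 128, 121 and 132 CPM in the parental cells (1.2-fold lower, adjusted p = 0.043). That call was lost in 9 of 33 alternative settings, among them leaving out any 1 of the parental libraries. Bcl2l2 passed in none of the 7 comparisons, with parental libraries at 2.50, 2.23 and 2.56 CPM and the highest line mean, 3.47 CPM, in the MITF/TFEB DKO.

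The 2 effector genes changed by less than 2-fold everywhere. Bax, whose protein moves from the cytosol to mitochondria, was highest in the parental cells (69.4, 70.0 and 67.7 CPM). It was lower in the TFE3 KO (58.7, 42.3 and 51.2 CPM, adjusted p = 0.013), the MITF/TFE3 DKO (53.1, 58.3 and 43.9 CPM, adjusted p = 0.0058), the TFEB/TFE3 DKO (53.4, 43.9 and 47.8 CPM, adjusted p = 0.0066) and the TKO (56.1, 52.9 and 49.2 CPM, adjusted p = 0.0072), with log2 fold changes from -0.51 to -0.38. These are the 4 lines without TFE3, and none of their libraries reached the parental range, but neither did those of the TFEB KO (53.6 to 60.2 CPM) or the MITF KO (55.7 to 65.7 CPM), which did not pass. Without replicate 2 of the TFE3 KO its difference was -0.33 (adjusted p = 0.11), and without replicate 3 of the MITF/TFE3 DKO that line's was -0.31 (adjusted p = 0.051). On the opposite strand the model Gm73431 overlaps the 3′ end of Bax, and the counting is not stated to use strand.

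Bak1, whose protein resides in the mitochondrial outer membrane, was highest in the MITF KO. The 3 libraries of the MITF KO held 113, 131 and 113 CPM against 82.8, 87.1 and 77.0 CPM in the parental cells (1.44-fold, adjusted p = 0.0016), without overlap. In the MITF/TFE3 DKO Bak1 was back at 77.0, 82.4 and 65.2 CPM, within or below the parental range. The MITF/TFEB DKO passed narrowly (113, 99.1 and 92.6 CPM, adjusted p = 0.043), and without its replicate 1 its log2 fold change was 0.22 (adjusted p = 0.18).

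Among the BH3-only genes, Bbc3 had the most regular pattern of all members. It codes for PUMA, a potent killer that binds every pro-survival protein of the family and is a classical p53 target. The parental libraries held 14.3, 13.7 and 14.1 CPM and those of the MITF KO 29.8, 30.1 and 23.2 CPM, a 1.89-fold rise (adjusted p = 2.29e-05). The MITF/TFE3 DKO (31.6, 30.4 and 25.2 CPM, 1.99-fold, adjusted p = 9.27e-06) and the TKO (28.1, 25.8 and 28.9 CPM, 1.9-fold, adjusted p = 9.02e-06) stood at about the same level. The MITF/TFEB DKO was higher still, at 44.5, 38.6 and 39.7 CPM (2.79-fold, adjusted p = 8.95e-09). None of its libraries overlapped those of any other line. With MITF present the gene was lower than parental in the TFE3 KO (11.6, 7.79 and 6.81 CPM, log2 -0.66 ± 0.14 SE, adjusted p = 0.0035, but 0.11 with only the libraries compared), and the TFEB/TFE3 DKO and TFEB KO, at 10.4 to 13.0 CPM, did not pass. Bbc3 (ENSMUSG00000002083) lies on the plus strand of chromosome 7, from 16042318 to 16052130.

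Bcl2l11 codes for BIM, a BH3-only protein that binds all pro-survival members and is held down by growth factor signalling. Parental libraries were at 14.6, 17.2 and 14.5 CPM and did not differ detectably from any single KO. In the MITF/TFEB DKO the libraries held 30.2, 27.6 and 29.1 CPM (1.83-fold, adjusted p = 7.18e-06) and in the TKO 27.4, 25.5 and 32.9 CPM (1.8-fold, adjusted p = 1.03e-05). Both lines lay above all libraries of the 6 other lines, as they did for Bcl2. How many of all genes separate these lines so was not counted, and 28.8% and 28.3% of all genes rose in them. The MITF/TFE3 DKO, with 18.4, 19.3 and 16.8 CPM, did not pass.

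Bmf, a BH3-only gene whose product is tied to the cytoskeleton, rose in the same 3 lines in which Bcl2l1 fell, from few reads. The parental libraries held 0.949, 0.591 and 0.674 CPM (13 to 22 reads) and the MITF/TFEB DKO 1.96, 2.48 and 3.19 CPM (50 to 80 reads), without overlap (log2 1.02 ± 0.25 SE, adjusted p = 0.0016). The log2(CPM + 1) scale understates changes at this depth, and edgeR on the reads gave a log2 fold change of 1.77. The MITF/TFE3 DKO (2.20, 1.46 and 1.78 CPM, adjusted p = 0.031) and the TKO (1.02, 1.81 and 2.41 CPM, adjusted p = 0.038) also passed, but lost the call in 5 of 32 alternative settings each, among them without parental replicate 2, where Bmf was at 0.63 (adjusted p = 0.095) and 0.57 (adjusted p = 0.11). Bid, which links death receptors to mitochondria once caspase-8 has cleaved it, passed in no comparison with the parental cells (line means 10.0 to 17.9 CPM). Its 3′ end overlaps that of Bcl2l13 on the opposite strand, so reads of the 2 genes may not be told apart without strand.

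**Figure D2:**
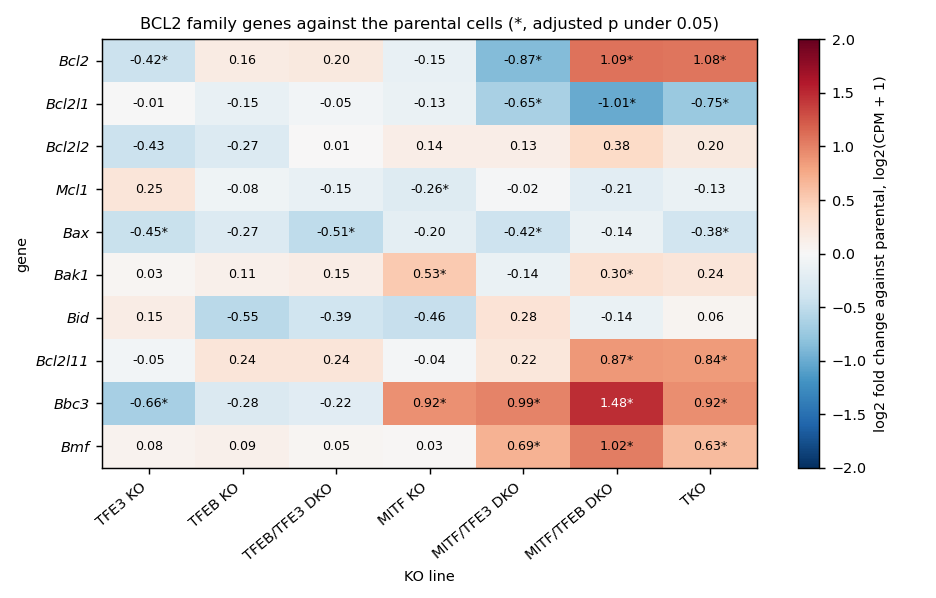
Log2 fold changes (limma on log2(CPM + 1)) of the 10 genes, in rows, in the 7 KO lines against the parental cells, in columns; colour runs from -2 to 2 and an asterisk marks an adjusted p under 0.05. The MITF/TFEB DKO and the TKO show Bcl2, Bcl2l11, Bbc3 and Bmf up and Bcl2l1 down, and the TFEB KO column has no asterisk.

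In the TKO and the MITF/TFEB DKO, where Bcl2 rose and Bcl2l1 fell, the make-up of the pro-survival messenger RNA differed from the parental one more than its total did, whereas both genes and the total were lower in the MITF/TFE3 DKO. Summed over the 4 pro-survival genes, parental cells held 261 ± 3.70 CPM (SD, n = 3), the TKO 292 ± 6.86, the MITF/TFEB DKO 282 ± 4.20 and the MITF/TFE3 DKO 205 ± 1.48. Bcl2 made up 23.9% ± 0.894 of this sum for the parental cells, 45.4% ± 1.13 for the TKO and 47.4% ± 2.13 for the MITF/TFEB DKO, but 16.4% ± 0.576 for the MITF/TFE3 DKO. Bcl2l1 made up 26.6% of it for the parental cells, 14.0% for the TKO and 12.2% for the MITF/TFEB DKO. For every 100 CPM of Bcl2l1 there were 90.4 ± 10.2 CPM of Bcl2 in parental libraries, 326 ± 29.4 in those of the TKO and 397 ± 56.1 in those of the MITF/TFEB DKO. Mcl1 was the largest part in all lines but the TKO and the MITF/TFEB DKO. Its share was 48.6% ± 2.26 for the parental cells, 56.2% ± 6.54 for the TFE3 KO and 60.9% ± 1.25 for the MITF/TFE3 DKO. The 4 BH3-only genes summed to 44.9 ± 2.49 CPM in the parental cells and to 41.1 to 42.0 CPM (means) in the other lines with MITF. Without MITF the sum was larger, with 54.0 ± 2.31 CPM for the MITF KO, 67.0 ± 6.51 for the MITF/TFE3 DKO, 73.2 ± 6.77 for the TKO and 86.1 ± 3.75 for the MITF/TFEB DKO. These sums are descriptions of messenger RNA and were not tested.

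**Figure D3:**
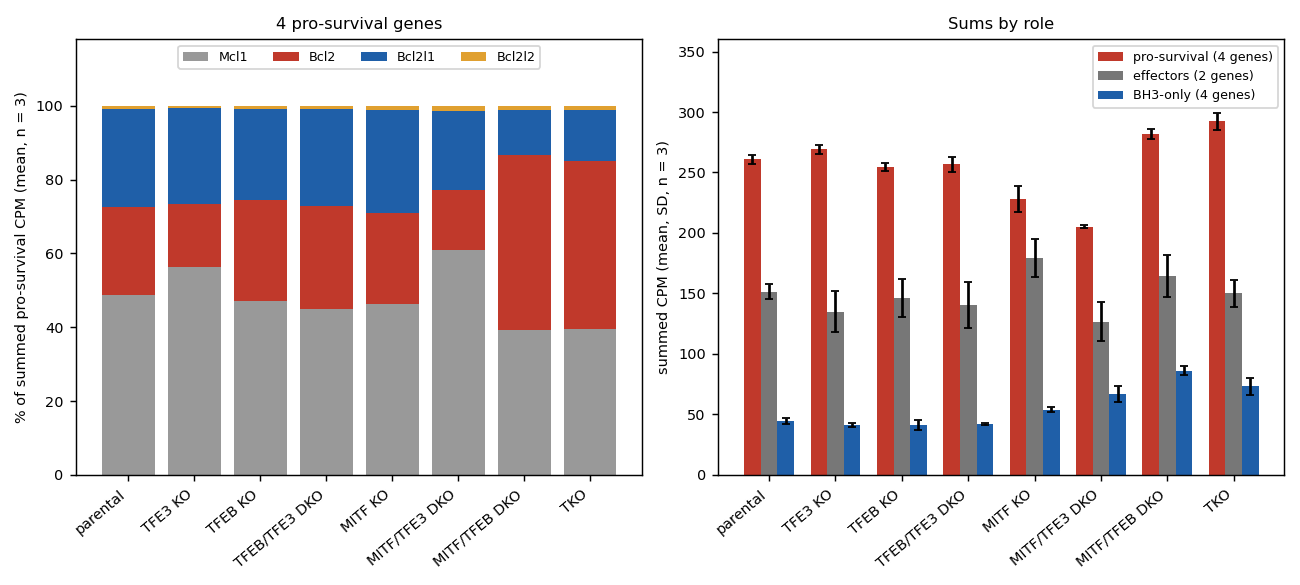
Left, the share of each pro-survival gene in the summed CPM of the 4 (y axis, %, mean of 3 libraries) in the 8 lines. Right, the summed CPM (mean and SD, n = 3) of the pro-survival, effector and BH3-only genes; the Bcl2 share is 47.4% in the MITF/TFEB DKO against 23.9% in the parental cells, and the BH3-only sum is 86.1 CPM against 44.9 CPM.

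The remaining 9 comparisons between lines that differ by 1 gene ask what a factor does once others are absent. Of their 90 gene and comparison pairs 21 rose and 11 fell, 5 and 0 of them by at least 2-fold at an unadjusted p under 0.05, where 4.64% and 3.29% of all pairs did. Loss of MITF moved Bcl2 in different directions. Without TFE3 it fell (log2 -0.45, 95% CI -0.61 to -0.28), whereas it rose without TFEB (0.93, 95% CI 0.77 to 1.09) and without both (0.88, 95% CI 0.72 to 1.04). Bbc3 rose after MITF loss in each of these backgrounds, by 3.14-fold without TFE3, 3.39-fold without TFEB and 2.22-fold without both (adjusted p = 3.01e-09, 4.23e-10 and 4.09e-07). Bcl2l1 fell in all 3 (log2 -0.64, -0.87 and -0.69). The counts were 2 higher and 3 lower of 10 without TFE3 (22.8% and 22.2% of all genes), 5 and 1 without TFEB (29.2% and 27.3%) and 3 and 1 without both (30.1% and 27.7%). Bcl2l2 rose without TFE3 (0.56) and without TFEB (0.65), and the first of these calls was lost without any of 3 single libraries (for example 0.42 without replicate 1 of the TFE3 KO, adjusted p = 0.081).

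Loss of TFEB raised Bcl2 in all backgrounds tested that lacked another factor, and by most where MITF and TFE3 were both gone. The rise was 1.54-fold without TFE3 (adjusted p = 5.35e-06), 2.35-fold without MITF (adjusted p = 7.26e-12) and 3.86-fold without both (log2 1.95, 95% CI 1.79 to 2.11, adjusted p = 1.48e-15). The rise without MITF exceeded that with MITF present by 1.07 (adjusted p = 6.43e-08), a difference of effects in which 4 members were higher and 1 lower against 17.7% and 17.4% of all genes, and within the lines without MITF it was 0.72 larger without TFE3 than with it (adjusted p = 3.50e-05), where 3 members were higher and 2 lower against 15.5% and 13.1%. For TFE3 loss, the effect without MITF less that with MITF was higher for Bbc3 (0.73) and lower for Bak1 (-0.70), against 10.2% and 10% of all genes, and for the joint loss of TFEB and TFE3 it was higher for Bcl2, Bid and Bcl2l11 and lower for Bcl2l1 and Bak1, against 21.9% and 19.5%. Where MITF and TFE3 were both gone, Bcl2 stood at 33.0 to 34.7 CPM with TFEB (MITF/TFE3 DKO) and at 130.4 to 135 CPM without it (TKO). In cells without MITF, TFEB loss also raised Bcl2l11 (1.88-fold), Bmf (1.98-fold) and Bbc3 (1.47-fold) and lowered Bcl2l1 (1.84-fold), so that 4 members rose and 1 fell (25.1% and 23.9% of all genes). The log2(CPM + 1) scale understates the rise of Bmf, whose line means were 0.781 CPM in the MITF KO and 2.54 CPM in the MITF/TFEB DKO. With TFE3 also absent, Bcl2 and Bcl2l11 rose (Bcl2l11 1.54-fold) together with Bak1 (1.3-fold), 3 of 10 higher and none lower where 26.6% of all genes rose and 24.2% fell. The Bak1 call was lost without replicate 3 of the MITF/TFE3 DKO (0.28, adjusted p = 0.087) and without replicate 1 of the TKO (0.31, adjusted p = 0.07). In the TFE3 KO background 2 members rose and 1 fell (14.5% and 14% of all genes), with Mcl1 1.31-fold lower (adjusted p = 0.0058, but 0.085 with only the libraries compared) and Bbc3 1.35-fold higher (adjusted p = 0.027, and 0.15 without replicate 3 of the TFE3 KO).

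Loss of TFE3 gave the most calls, 5 of 10, in cells without MITF that kept TFEB. There Bcl2 fell 1.65-fold (adjusted p = 2.27e-07), Bcl2l1 1.43-fold (adjusted p = 0.010) and Bak1 1.59-fold (adjusted p = 0.00022), while Bid (1.66-fold) and Bmf (1.58-fold) rose, 2 higher and 3 lower of 10 (18.1% and 19.7% of all genes). The line means of Bmf were 0.781 CPM in the MITF KO and 1.81 CPM in the MITF/TFE3 DKO, a rise that the log2(CPM + 1) scale understates. The Bcl2l1 call was lost without replicate 2 of the MITF KO (-0.45, adjusted p = 0.056). The Bid call was lost without replicate 1 of the MITF KO (0.59, adjusted p = 0.075) and the Bmf call in 6 of 32 settings, with edgeR on the reads giving 1.23 and an adjusted p of 0.065. Where TFEB was absent and MITF present, none of the 10 passed after loss of TFE3, with limma or edgeR, and none had an unadjusted p under 0.05 (2.18% of all genes passed). Without MITF and TFEB, Bbc3 alone fell (1.47-fold, adjusted p = 0.011, with 5.41% of all genes higher and 6.99% lower, and 0.059 without replicate 1 of the MITF/TFEB DKO), and Bcl2 did not differ detectably, with an interval of the log2 difference from -0.17 to 0.15.

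**Figure D4:**
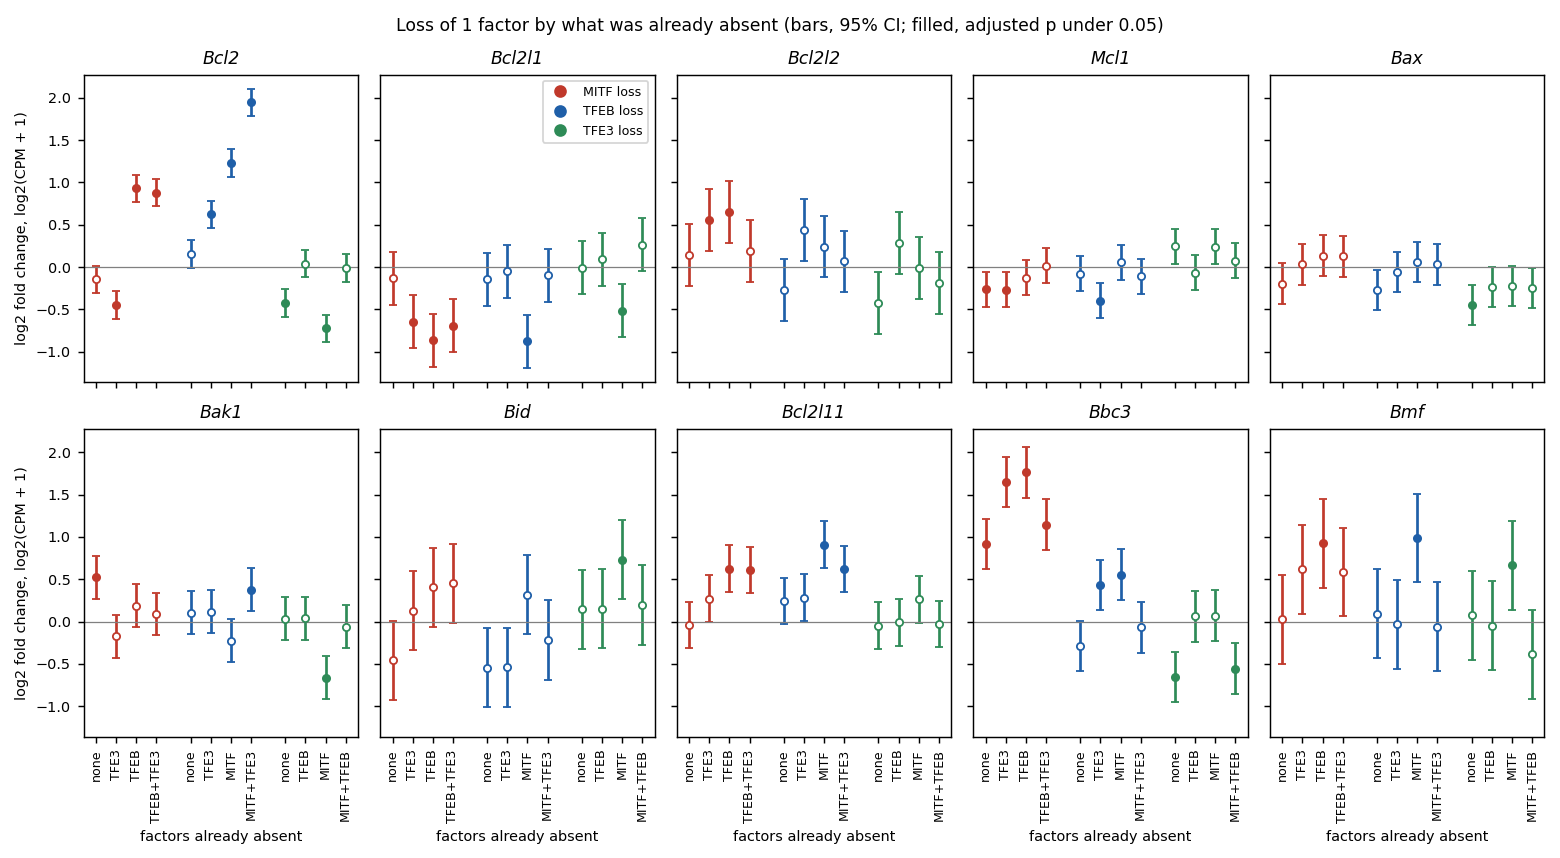
Log2 fold change (y axis, log2(CPM + 1) scale) of each gene on losing 1 factor, 12 steps a panel grouped by the factor lost (red, MITF; blue, TFEB; green, TFE3) and labelled by the factors already absent. Bars are 95% confidence intervals and filled points have an adjusted p under 0.05; TFEB loss raises Bcl2 by 0.16 in the parental cells, which did not pass, and by 1.95 where MITF and TFE3 are absent.

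Averaged over the TFEB and TFE3 genotypes, the 4 lines without MITF differed from the 4 with MITF in 8 of the 10 genes, 6 higher and 2 lower, in a comparison in which 35.1% of all genes were higher and 33.7% lower. Bbc3 had the largest difference of the 10 (2.59-fold, adjusted p = 5.99e-14). Its 12 libraries without MITF ran from 23.2 to 44.5 CPM (median 29.9) and the 12 with MITF from 6.81 to 14.3 CPM (median 11.8). These groups did not overlap, while those of each other member did. The share of all genes whose groups do not overlap was not counted, so this separation is a description. Bcl2l1 was 1.5-fold lower (adjusted p = 4.02e-07), with medians of 41.9 CPM without MITF and 67.5 CPM with it. The others that passed were Bmf (log2 0.54), Bcl2l2 (0.38), Bcl2l11 (0.37), Bcl2 (0.30), Bak1 (0.16) and Mcl1 (-0.16). Such a mean need not hold for each line. In the MITF KO Bcl2l11 (-0.039) and Bmf (0.029) did not differ detectably from the parental cells, and Bak1 was lowest in the MITF/TFE3 DKO (74.9 CPM). The Bcl2 libraries without MITF ran from 33.0 to 138 CPM, outside the range with MITF (43.0 to 78.9 CPM) at either end, so that the mean of these lines describes none of them. The Bak1 call was lost without any of 6 single libraries, for example without replicate 2 of the TFEB/TFE3 DKO (0.13, adjusted p = 0.055).

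Over the 8 line means on the log2(CPM + 1) scale, the pattern of Bcl2 was most like those of Mapk3 (Pearson r = 0.992) and Pcdh7 (0.989) among 9538 other genes with a mean of at least 5 CPM. For Bbc3 the nearest were Cfap410 (0.995) and Polr3b (0.994), for Bcl2l1 Stk39 (0.987) and Copb2 (0.986), and for Bmf Kctd2 (0.992) and Mef2d (0.988). The 8 points share the parental origin and, for 4 of them, the MITF KO, and the highest of many correlations over 8 points is a description.

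Of the other genes that act with the family, 65 from 5 lists were in the table. The list of p53 and its targets, in which no member followed above was counted, had more rises than falls in each line without MITF. Of 15 genes measured, 7 rose and 3 fell in the TKO, 9 and 2 in the MITF KO as well as the MITF/TFEB DKO, and 8 and 1 in the MITF/TFE3 DKO, while none rose and 4, 3 and 4 fell in the TFE3 KO, TFEB KO and TFEB/TFE3 DKO. Of all genes, 28.3% rose and 27.9% fell in the TKO, 20.1% and 17.8% in the MITF KO, 28.8% and 27.3% in the MITF/TFEB DKO and 20.2% and 21.7% in the MITF/TFE3 DKO, and under 10% in either direction in the lines with MITF. The list had a median log2 fold change of 0.28 for the TKO, 0.30 for the MITF/TFEB DKO, 0.34 for the MITF KO and 0.54 for the MITF/TFE3 DKO, where the medians of all genes lay between 0.00059 and 0.016. Trp53 itself fell in the MITF KO (-0.63) and the MITF/TFE3 DKO (-0.49) and did not pass elsewhere.

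Btg2, an antiproliferative p53 target, was at 2.20, 2.64 and 2.61 CPM in the parental cells and at 12.4, 10.9 and 13.5 CPM in the MITF/TFEB DKO (log2 1.93 ± 0.17 SE, adjusted p = 1.61e-09). Trp53inp1, a stress-induced p53 cofactor, rose in the MITF/TFE3 DKO from 18.9, 16.2 and 19.96 CPM to 49.3, 55.4 and 63.5 CPM (1.56 ± 0.13 SE, adjusted p = 3.70e-09). In the same line Ccng1, the cyclin G1 gene, rose by 1.44 (adjusted p = 1.94e-09). Phlda3, which restrains AKT, was 1.38 higher in the TKO (adjusted p = 2.03e-11). Eda2r, a death receptor induced by p53, had 2 to 5 reads a library in the parental cells and 42 to 78 in the MITF/TFE3 DKO.

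**Figure D5:**
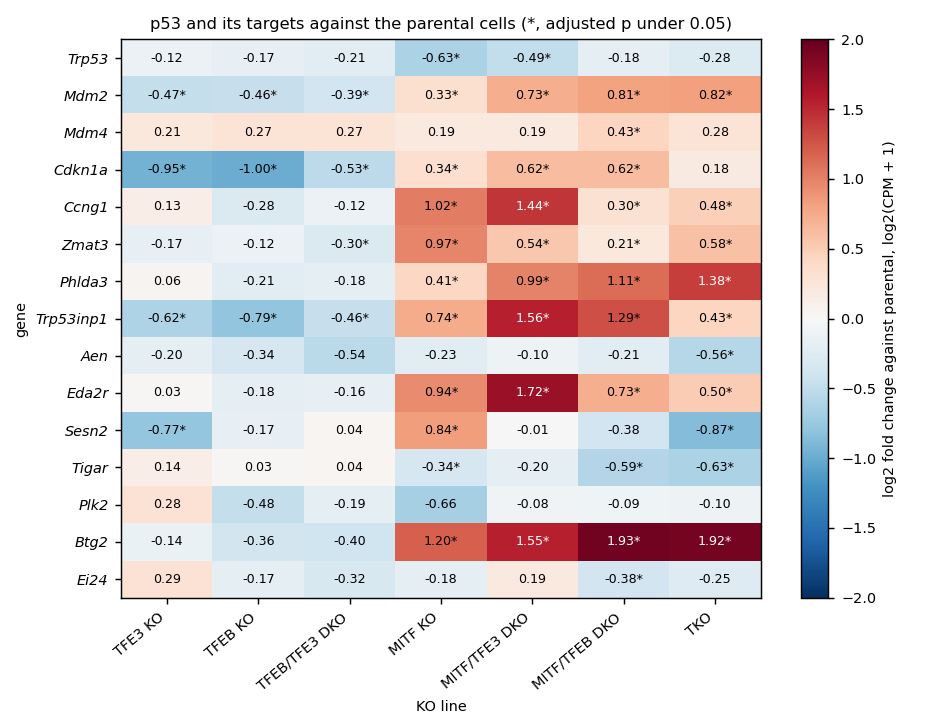
Log2 fold changes of p53 and the measured genes of its target list, in rows, in the 7 KO lines against the parental cells, in columns, on the log2(CPM + 1) scale with colour from -2 to 2 and an asterisk for an adjusted p under 0.05. The 4 columns without MITF hold 7 to 9 rises and 1 to 3 falls each, where 20.1% to 28.8% of all genes rose, and the 3 with MITF hold no rise and 3 to 4 falls.

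Of 9 genes of the death receptor pathway, 6 rose and 1 fell in the TKO as well as the MITF/TFEB DKO, 4 rose and 2 fell in the MITF/TFE3 DKO and none passed in the MITF KO, against the shares of all genes given above for these lines. Tnfrsf10b, the mouse TRAIL receptor, rose in the MITF/TFE3 DKO from 9.84, 8.91 and 11.0 CPM to 22.6, 20.9 and 22.2 CPM (adjusted p = 6.91e-05). It fell in the TFEB/TFE3 DKO (-0.89) and TFEB KO (-0.96). Fas had at most 2 reads in any library of 6 lines but 15 to 30 in those of the MITF/TFEB DKO and 29 to 36 in those of the TKO. Of 17 genes of the apoptosome, the caspases and their inhibitors, at most 5 rose and 4 fell in any line, both in the TKO, where 28.3% of all genes rose and 27.9% fell, so that these counts were near the background. Xiap, the direct caspase inhibitor, and Birc2, which codes for cIAP1, were chosen after their values were seen: in the TKO they were higher by 0.88 and 0.95.

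Of 6 further BCL2 family genes in the table, Bnip3, a mitophagy receptor with a BH3-like segment that responds to hypoxia, rose most. In the TFEB/TFE3 DKO the libraries held 212, 147 and 144 CPM against 44.6, 55.0 and 52.3 CPM in the parental cells (1.69 ± 0.24 SE, adjusted p = 6.3e-05). In the TFEB KO, at 171, 66.8 and 86.4 CPM, 1 library was far above the other 2. The other family genes that passed anywhere were Bad, Bok, Bcl2l12, Bcl2l13 and Bnip3l, each by less than 2-fold. All 6 thus passed somewhere, but the share of all genes that pass in at least 1 of the 7 comparisons was not counted. Taken line by line, the most rises were 3 (MITF KO) and the most falls 2 (TFE3 KO). The TKO had 2 rises and 1 fall, with shares of 28.3% and 27.9% for all genes. Among 18 partners and regulators of the family, Ddit3, the stress factor CHOP that can raise Bcl2l11 and Bbc3 and lower Bcl2, fell in the TKO to 83.2, 77.6 and 77.1 CPM from 243, 245 and 202 CPM (-1.52 ± 0.11 SE, adjusted p = 4.41e-11) and in the TFE3 KO (-1.02), and rose in the MITF KO (1.03) and the MITF/TFE3 DKO (0.99), and in the MITF/TFEB DKO it did not pass (-0.25, adjusted p = 0.058). Its upstream factor Atf4 fell in the MITF/TFEB DKO (-1.47, adjusted p = 2.94e-10), the TKO (-1.21) and the MITF/TFE3 DKO (-0.35) and rose in the MITF KO (0.44) and the TFEB/TFE3 DKO (0.42). Foxo3, which can activate Bcl2l11 and Bbc3 and was also chosen after its values were seen, was higher in all 4 lines without MITF, by 0.50 to 0.97. The 18 partners and regulators as a set showed 5 rises and 6 falls for the TKO. Double loss of MITF and TFEB gave 6 rises and 6 falls, and that of MITF and TFE3 gave 4 and 4. The MITF KO had 5 rises and 1 fall, but Bcl2l11 did not pass there (-0.039). Whether Foxo3 has a part in the Bcl2l11 and Bbc3 values was not tested.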

How the data were processed

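RNA of 8 B16F10-luc2 lines, 3 libraries each, was sequenced with a 3′-end kit that primes on poly(A). The authors trimmed reads with trim_galore 0.6.5 (cutadapt 2.10), checked them with FastQC 0.11.9, mapped them to mm39 with STAR 2.7.8a and normalised gene counts with edgeR, as the methods and the submitters' processing notes state. They deposited CPM scaled by TMM, a signal that is never negative. The counting tool, annotation, strand setting and filter are not given in the sources used here. From the steps between low values the reads were worked back (99.996% whole within 0.05 read), and the libraries held 18300902 to 26667877 reads. TMM factors ran from 0.925 to 1.07.

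Lines were compared with limma 3.58.1 (R 4.3.3, variance trend) on log2(CPM + 1) in 1 fit of all 24 libraries (16 residual degrees of freedom), two-sided, with Benjamini-Hochberg adjustment over 12010 genes. The study tested counts with edgeR, and since the table is normalised, edgeR 4.0.16 on the recovered reads was an alternative. A gene passed at an adjusted p under 0.05, and a 2-fold call needs a fold of at least 2 and p under 0.05. Folds of the tests are on the log2(CPM + 1) scale, which understates ratios of CPM for genes with few reads. There were 7 comparisons with the parental cells, 9 further losses of 1 factor, 1 of lines without and with MITF, and 4 differences of effects. Other alternatives were pseudocounts of 0.25 and 5, a mean of at least 5 CPM (9539 genes, without Bcl2l2 and Bmf), median-of-ratios and quantile normalization, no trend, a replicate block, only the libraries compared and each library left out. Tested on simulated data for the MITF KO comparison (12010 genes), limma recovered 99% of 100 genes changed by 1 (log2), 100% of 100 changed by 2 and passed 0.1185% of the unchanged ones. The changed genes were drawn from those with a mean of at least 5 CPM, so the recovery does not cover Bcl2l2 and Bmf. All genes were simulated with the same dispersion, which real libraries need not follow.

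The 10 members and the gene lists were chosen with earlier results of these data known. All members are named, then at most 5 genes a list with the largest change among 2-fold calls that passed, the 2 genes most like each member whose line means span at least 1 (log2), and Mitf, Tfeb and Tfe3, except that 1 gene of the lists is not reported here. Neighbours are the 100 nearest measured genes with a mean of at least 5 CPM in GENCODE vM39. The table held 0 columns that belong to no sample here. Python 3.11.15, numpy 2.4.6, pandas 2.3.3 and matplotlib 3.10.9 were used. The ChIP-seq and human cell line data of the study were not analysed here.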

Additional observations from a re-analysis of the deposited data

Results flagged for a closer look

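In 17 cases the effect of losing a factor on a member differed between backgrounds by a test of the difference itself (limma interaction contrasts, adjusted p under 0.05), out of 40 gene and comparison pairs. The values are differences of log2 fold changes.

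The effect of TFEB loss without MITF, less that with MITF, was 1.074 for Bcl2, -0.733 for Bcl2l1, 0.8625 for Bid, 0.6651 for Bcl2l11 and 0.8412 for Bbc3, 4 members higher and 1 lower where 17.7% and 17.4% of all genes were. The Bid value was lost in 10 of 33 alternative settings. For TFE3 loss the same difference was -0.6967 for Bak1 and 0.7297 for Bbc3 (10.2% of all genes higher, 10% lower).

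For the joint loss of TFEB and TFE3 it was 1.023 for Bcl2, -0.5618 for Bcl2l1, -0.4353 for Bak1, 0.9086 for Bid and 0.6472 for Bcl2l11 (21.9% higher, 19.5% lower), of which Bcl2l1, Bak1 and Bid were lost in 9, 13 and 6 of 33 settings.

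In cells without MITF, the effect of TFEB loss without TFE3, less that with TFE3, was 0.7155 for Bcl2, 0.7803 for Bcl2l1, 0.6037 for Bak1, -0.6256 for Bbc3 and -1.049 for Bmf (15.5% higher, 13.1% lower). The last 2 were lost in 4 of 33 and 7 of 32 settings.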

How the results depend on the processing

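No member changed direction in any comparison it had passed. Of the 24 calls of members against the parental cells, 16 held in all alternatives run for them, as did 23 of 32 after the further losses of 1 factor, 6 of 8 without against with MITF and 11 of 17 differences of effects. The 2-fold counts moved most. Members rose by at least 2-fold against the parental cells in 4 cases, and in 7 with edgeR on the reads, and fell so in 1, and in 0 with a pseudocount of 5. After loss of 1 factor they rose so in 5 cases, in 9 with edgeR and in 8 with a pseudocount of 0.25. Of the lists, 15 pairs rose so (25 with edgeR, 9 with a pseudocount of 5) and 5 fell (13 with edgeR, 12 and 3 with pseudocounts of 0.25 and 5). These scales differ by construction for genes with few reads. With quantile normalization 1 member, not 2, fell without MITF, as Mcl1 was lost (-0.12, adjusted p = 0.062).

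Leaving out 1 library gave 10 to 14 rises and 10 to 12 falls against the parental cells (2-fold, 3 to 5 and 0 to 1), 18 to 24 and 10 to 12 after loss of 1 factor (2-fold, 5 to 7 and 0 to 1), 5 to 6 and 2 to 2 without MITF, 9 to 13 and 3 to 7 for the differences of effects, and 81 to 99 and 45 to 66 for the lists (2-fold, 14 to 18 and 4 to 7). On average, replicate numbers did not pair the libraries (mean correlation of same-numbered deviations 0.022, from -0.66 to 0.77). Single pairs of same-numbered libraries deviated together or in opposite ways, and a block on the replicate number need not remove this. With the replicate block 13 pairs rose and 11 fell against the parental cells, as without it, 21 and 11 after loss of 1 factor, 6 and 2 without MITF, 11 and 7 (6 without it) for the differences of effects and 97 and 65 (63 without it) for the lists. The depth limits Bmf, Bcl2l2, Fas and Eda2r, which have under 100 reads a library.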
